A study of Mus musculus with 23 samples.

Results

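The genes described here are 46 genes of the cell cycle in RNA sequencing libraries of cells labelled ILC2s, group 2 innate lymphoid cells, which are tissue lymphocytes that answer interleukins with type 2 cytokines. They were chosen by name from a list of 48 genes of S phase, DNA replication and mitosis, of which 46 were in the table of 19945 genes, and Tyms and Uhrf1 were not analysed here. Of the 46, 24 act in mitosis and 22 in replication and its control, and all 46 passed the filter on low values that left 15268 genes for testing.

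A dividing cell first licenses its replication origins by loading MCM helicases, then copies its DNA in S phase with polymerases, clamps and a raised supply of deoxynucleotides, and finally separates the copies in mitosis under cyclin B and CDK1. Genes of the replication step are classically driven by E2F factors once cyclin E and CDK activity release them from RB. Genes of mitosis are controlled by the DREAM and MMB complexes, which act at CHR elements close to the gene start. CCAAT elements often lie beside these. Lymphocytes grown in cytokines cycle, and many circulating lymphocytes rest, so the transcripts of these genes are widely used to read proliferation.

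The study compared cells taken from culture with the same kind of cells after transfer into mice with a stroke. All groups carry the genotype label B6.Cg-Tg(CAG-GFP)Smoc, in which the CAG promoter, active in most tissues, drives GFP. Donors were male mice 8 to 10 weeks old, both transgenic and wild-type, treated with IL-33 at intervals of 2 days in a course of 7 days. From their bone marrow and spleen, MACS kept CD25+ cells without the lineage proteins Ter119, Gr1, CD11b, CD45R/B220 or CD3ε. All groups share a culture of 14 days with IL-7 and IL-15, to which IL-2 as well as IL-33 were added. The culture group (5 libraries) came directly from that medium without MCAO, the occlusion of the middle cerebral artery used as a model of ischemic stroke. For the other groups a sort gate of CD127+KLRG1+ST2+ among CD45+Lin- cells was used and the cells were injected into a vein 6 hours after MCAO. They were collected on day 1 from blood, on day 5 again from blood, or on day 5 from brain, with 6 libraries each. The sources used here do not state how cells were recovered from the hosts, whether hosts were pooled or what the 2 batches in the labels were. Batch 1 holds replicates 1 to 3 of each group, and batch 2 holds culture replicates 4 and 5 and replicates 4 to 6 of the other groups.

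Before the results, the libraries were checked against their labels and each other. Recovered reads ran from 11.6 M to 16.9 M in batch 1 and from 27.8 M to 58.1 M in batch 2 (M, 1e6 reads). Culture replicates 1 to 3 were nearly alike, with chi-square per degree of freedom of 4.29 to 13.1 between their reads, as were brain replicates 1 and 3 at 10.4, against 47.9 to 1370 for the other pairs within a group. Blood day 1 replicates 2 and 6, brain replicate 2 and culture replicate 5 stood apart by the lowest correlations of log2 values within their own groups. These ran from 0.755 to 0.838 for brain replicate 2. By chi-square per degree of freedom brain replicate 6 lay farther off, at 542 to 806, than brain replicate 2, at 444 to 644. Brain replicate 6 was not among the 4 libraries left out together below. In the culture libraries Klrg1 and Il2ra, which encode KLRG1 and CD25, were high at 15664 to 50175 and 13451 to 21066 normalized counts, but Il1rl1, which encodes ST2, and Il5 each had no read in 4 of 5 libraries, and Cd3g, a T cell receptor component, was at 45714 to 221732. In the brain libraries Klrg1 was at 1.87 to 23.4 and Gata3, the master factor of ILC2s, at 0 to 22.2. A list of 9 ILC2 markers summed to 0.170 to 0.338% of the normalized total in culture and 0.00658 to 0.0153% in brain. The cell type is named here only as the labels give it.

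The promoters of the 2 functional groups carry different short elements, and a few stretches that hold them are shown. A link between these elements and the differences below was not tested. RefSeq promoter windows (GRCm38.p6, 250 bases before to 50 after a gene start) were held for 39 of the 46 members, 4 of them with more than 1 start. In the first set, from mitosis members, capitals mark CHR letters (TTTGAA or TTCGAA) and CCAAT on either strand. The stretch of Cdc20, the APC/C activator that starts anaphase, is chr4:118437344-118437403 on the minus strand, that of Cdk1 is chr10:69352913-69353002 on the minus strand, that of Ube2c, the ubiquitin-conjugating enzyme of APC/C, is chr2:164769834-164769928 on the plus strand and that of Kif11, the spindle motor Eg5, is chr19:37376322-37376381 on the plus strand. All 4 end at the base before the start.
Cdc20: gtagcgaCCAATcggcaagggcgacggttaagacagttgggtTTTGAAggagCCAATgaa
Cdk1: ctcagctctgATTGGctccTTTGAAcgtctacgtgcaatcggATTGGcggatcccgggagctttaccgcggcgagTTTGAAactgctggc
Ube2c: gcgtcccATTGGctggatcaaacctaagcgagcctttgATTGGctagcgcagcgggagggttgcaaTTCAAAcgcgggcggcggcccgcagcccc
Kif11: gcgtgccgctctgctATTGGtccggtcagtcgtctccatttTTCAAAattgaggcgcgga

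In the second set, from replication members, capitals mark E2F letters and CCAAT on either strand. The E2F letters searched were TTCCCGC, then the variant with a changed middle TTGGCGC, next to these the variant written TTCGCGC, and last the variant written TTGCCGC. The stretch of Mcm6, a subunit of the replicative helicase, is chr1:128359706-128359820 on the minus strand, that of its partner Mcm5 is chr8:75109339-75109439 on the plus strand, 170 to 70 bases before the start, and that of Rrm1, the large subunit of ribonucleotide reductase, is chr7:102441595-102441694 on the plus strand.
Mcm6: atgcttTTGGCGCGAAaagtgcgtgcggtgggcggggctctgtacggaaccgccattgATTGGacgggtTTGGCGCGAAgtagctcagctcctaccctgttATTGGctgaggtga
Mcm5: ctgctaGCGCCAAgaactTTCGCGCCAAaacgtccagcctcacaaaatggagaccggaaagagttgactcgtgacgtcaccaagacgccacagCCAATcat
Rrm1: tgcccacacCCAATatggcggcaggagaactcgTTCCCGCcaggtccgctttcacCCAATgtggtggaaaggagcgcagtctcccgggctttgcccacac

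CHR letters were found in 16 of 20 mitosis members (80%) and 4 of 19 replication members (21.1%), against 21.7% of 27025 genes, counting a match at any listed start. CCAAT was found in 18 mitosis members (90%) and 11 replication members (57.9%), against 41.1% of all genes, and both elements together in 80%, 15.8% and 8.61%. E2F letters were found in 4 mitosis members (20%) and 13 replication members (68.4%), against 10.9% of all genes. On the minus strand CCAAT reads ATTGG and can share letters with TTGGCGC, and overlapping matches are printed as 1 run of capitals. These are matches of letters, and no binding was measured.

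**Figure D1:**
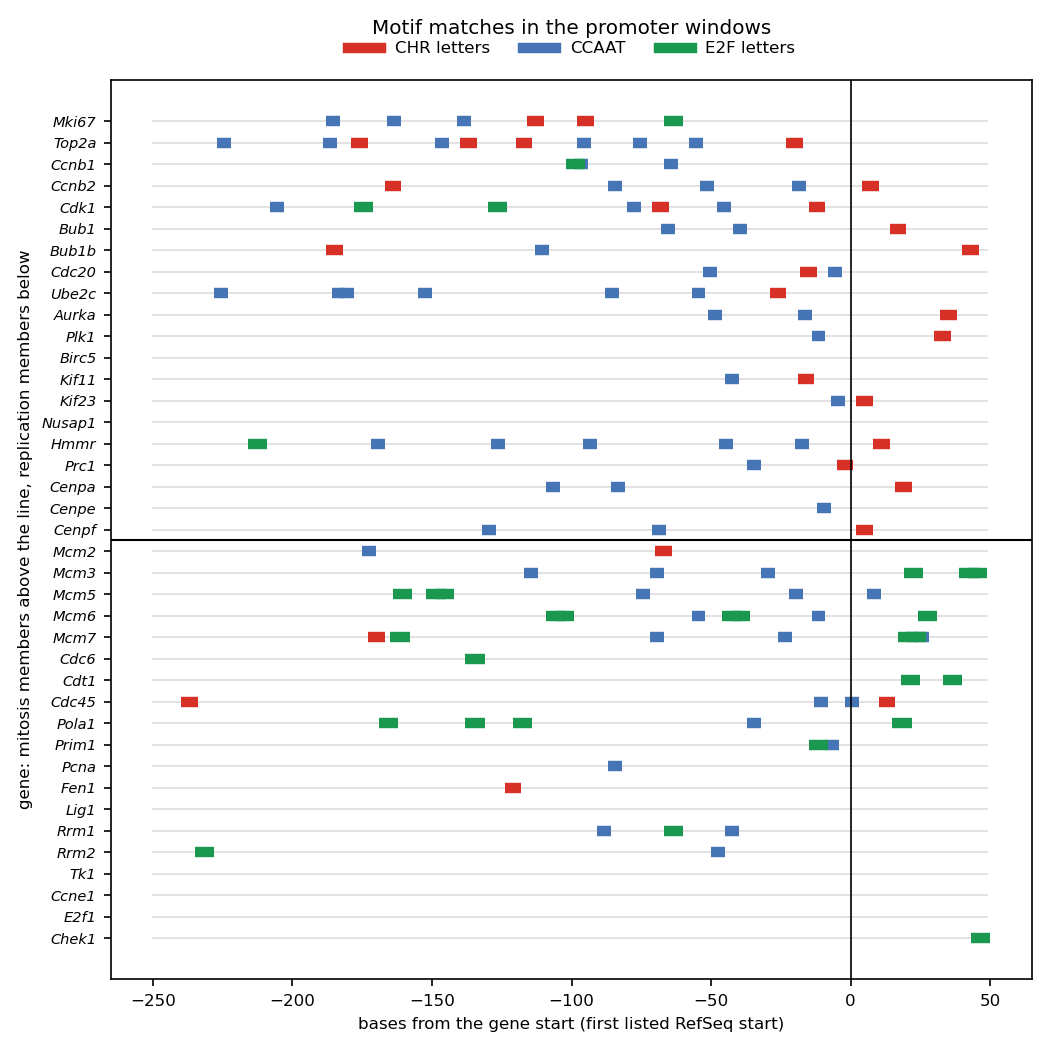
Positions of CHR letters (red), CCAAT (blue) and E2F letters (green) in the promoter windows of the 39 members in the RefSeq table, in bases from the first listed gene start (vertical line). At that start CHR matches are drawn for 16 of 20 mitosis members and E2F matches for 11 of 19 replication members, and the E2F matches of Lig1 and Fen1, at later starts only, are not drawn.

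The culture libraries of the 2 batches differed in these genes. All 46 members were lower in the culture libraries of batch 2 than of batch 1, with a median log2 difference of -2.66 against -0.05 for all genes, and 20 passed the test (limma, adjusted p under 0.05, two-sided) where 7.28% of all genes did. Mitosis members summed to 0.198 to 0.209% of the normalized total in the 3 batch 1 culture libraries and to 0.0289 and 0.0299% in the batch 2 libraries. Replication members summed to 0.327 to 0.334% and to 0.0740 and 0.0775%. The batches did not overlap in either sum. Among 8 combinations of group and batch, the batch 1 culture had the highest mean for 37 of the 46 members, and the lowest mean was in batch 2 culture for 19 and in batch 1 blood day 1 for 19.

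Since culture replicates 1 to 3 were nearly alike, the spread in the batch 1 culture is small, and many calls that use it depend on how those libraries are counted. The fit takes a single estimate of the spread per gene from all libraries. Near-alike libraries thus also enter the errors of comparisons that do not use them. With culture replicates 1 to 3 averaged into 1 library, and brain replicates 1 and 3 into another, 4 of the 20 calls between the culture batches remained, and all 46 differences kept their sign. Leaving out culture replicate 5, alone or among the 4 libraries that stood apart, leaves 1 culture library in batch 2. Counts from those fits that use batch 2 culture rest on that library. Without the 4 libraries, calls over all genes rose as well, as from 5052 to 7399 for blood day 1 against culture in batch 1. The deposited libraries also differed in the number of genes detected at a common depth, 13472 to 13934 in batch 1 culture and 10259 to 12106 in batch 2 culture. Depth moves with the batches as well, and the part of both in the difference was not tested.

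**Figure D2:**
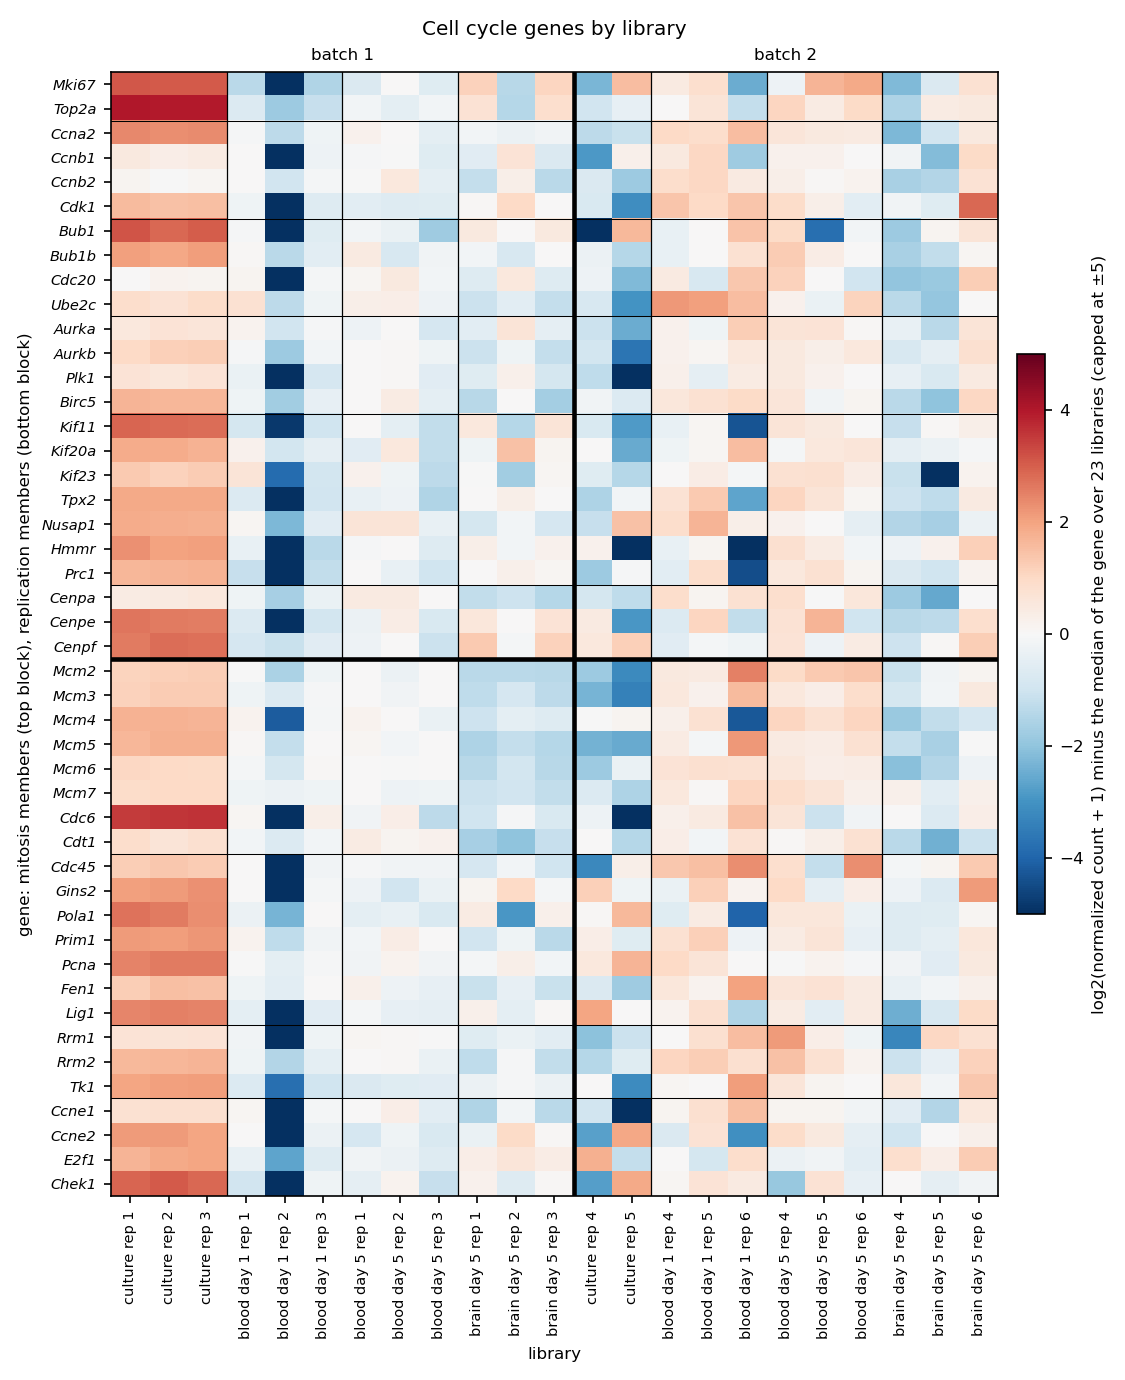
Normalized counts of the 46 members (rows, mitosis first, then replication) in each of the 23 libraries (columns, batch 1 left and batch 2 right), as log2(value + 1) minus the gene's median over the libraries, capped at 5 on either side. The 3 batch 1 culture columns are red in most rows, the 2 batch 2 culture columns are mixed to blue, and blood day 1 replicate 2 is dark blue in the rows where it had no read (17 of 46).

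**Figure D3:**
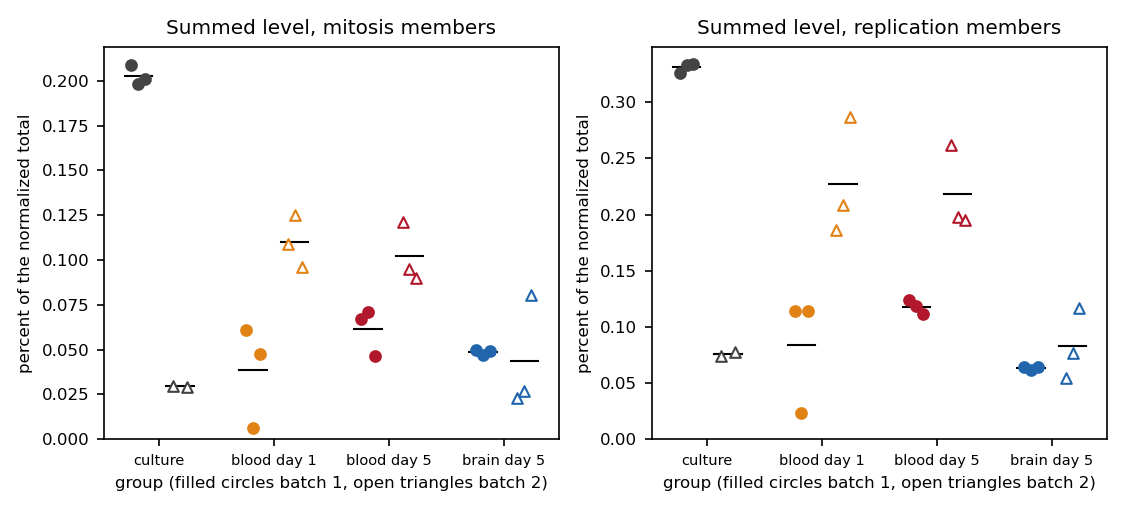
Summed level of the 24 mitosis members (left) and the 22 replication members (right) as percent of each library's normalized total, by group, with filled circles for batch 1, open triangles for batch 2 and bars for the means. The batch 1 culture libraries (0.198 to 0.209% and 0.327 to 0.334%) lie above all others, and the batch 2 culture libraries (0.0289 and 0.0299%, 0.0740 and 0.0775%) lie below both blood groups of batch 2.

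Mki67, which encodes the Ki-67 protein that coats mitotic chromosomes, was at 3242, 3156 and 3194 normalized counts in the batch 1 culture libraries and at 77.2 and 1108 in batch 2. Top2a, the topoisomerase that untangles the copied chromosomes, was at 13448, 13017 and 12967 and at 430 and 635, a log2 difference between culture batches of -4.65 ± 0.66 (SE, limma adjusted p = 0.000206, 0.0272 at most over the alternatives). Both genes were higher in each batch 1 library than in either batch 2 library. Of the cyclin and CDK genes, Cdk1 was at 1623, 1507 and 1520 and at 315 and 62.1, but its difference of -3.46 ± 1.67 did not pass the test (adjusted p = 0.216). Ccnb1, cyclin B1, was at 980, 888 and 923 and at 94.9 and 826, so that 1 of the 2 batch 2 libraries came near the batch 1 level. Bub1, a kinase of the spindle checkpoint, had 984, 813 and 906 in batch 1 and 0 and 346 in batch 2, where 3 reads would have given 2.03 in the library at 0. Aurkb, the kinase of the chromosomal passenger complex, was at 1280, 1448 and 1491 and at 335 and 50.2 (difference -3.42 ± 0.64, adjusted p = 0.00311), a call lost when the near-alike libraries were averaged (adjusted p = 0.148). The 2 batch 2 culture libraries also differed from each other, with replicate 4 the lower in Mki67, Ccnb1 and Bub1 and replicate 5 the lower in Cdk1 and Aurkb.

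The replication members showed the same order of batches in culture. Mcm5 was at 6878, 7480 and 7609 and at 424 and 386 (-4.17 ± 0.52, adjusted p = 6.89e-05, 0.0149 at most over the alternatives). Mcm2, another subunit of the helicase, was at 4084, 4247 and 4382 and at 539 and 208 (-3.66 ± 0.56, adjusted p = 0.000501). Cdc6, the loader of the helicase at origins, was at 2103, 2263 and 2327 and at 158 and 0, with 2.22 as the value of 3 reads in the library at 0. None of the batch 2 values of these genes reached the lowest batch 1 value. Pcna, the sliding clamp of DNA polymerases, was at 16296, 17326 and 17619 and at 4200 and 9402 (-1.44 ± 0.36, adjusted p = 0.0201). E2f1, the activator of many of these genes, differed otherwise, at 1739, 2015 and 2124 and at 1825 and 238, with 1 batch 2 library inside the batch 1 range.

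In blood the batches also stood apart, in the other direction. Mitosis members summed to 0.00643 to 0.0610% of the normalized total in batch 1 and 0.0962 to 0.125% in batch 2 of blood day 1, and to 0.0463 to 0.0710% and 0.0899 to 0.121% in blood day 5. Replication members summed to 0.0230 to 0.114% and 0.187 to 0.287% in blood day 1, and to 0.111 to 0.124% and 0.195 to 0.262% in blood day 5. The batches did not overlap in these sums, while in brain they did, at 0.0467 to 0.0497% and 0.0232 to 0.0803% for mitosis and 0.0615 to 0.0644% and 0.0547 to 0.116% for replication. Gene by gene, no member passed the test between batches within blood day 1, blood day 5 or brain by limma, where 1.11%, 0.766% and 0.963% of all genes did, and 26, 2 and 2 members had an unadjusted p under 0.05. On recovered reads edgeR called 0 in each group, and DESeq2 called 7 in blood day 1, 0 in blood day 5 and 1 in brain. Library quality weights gave 3 within blood day 5 and 14 within brain, and leaving out the 4 libraries that stood apart gave 4 and 5. The median log2 difference between batches, batch 2 minus batch 1, was 1.51 in blood day 1, 0.67 in blood day 5 and -0.07 in brain, and of the 46 differences 1, 4 and 27 were negative.

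The comparison of blood day 1 with culture asks how the transferred cells differed from cultured cells on day 1 after MCAO. In a model with batch as a term, 10 of 46 members fell and none rose, where 14% of all genes fell and 18.1% rose, and 35 of the 46 differences were negative (median -1.14 against 0.04 for all genes). The 10 were Mki67, Top2a, Kif11, Cenpf, Prc1, Mcm4, Pola1, Pcna, Lig1 and E2f1, 5 from each functional group. The batches went opposite ways. In batch 1, 36 members fell and none rose (14.7% of all genes fell and 18.4% rose), and all 46 differences were negative with a median of -3.25. In batch 2, 13 members rose and none fell (14.3% of all genes rose and 8.27% fell), with a median of 1.39. The change differed between batches for 29 members, each more positive in batch 2, where 9.63% of all genes differed. This is the batch difference within blood day 1 minus the one within culture. The culture difference given above therefore enters it, here and in the later comparisons with culture.

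Those counts moved with single libraries. Without blood day 1 replicate 2, which had no read of 17 members, 6 members fell in the model with batch, 24 fell in batch 1, 19 passed in batch 2 and 22 differed between batches. At a common depth, blood day 1 replicates 2 and 6 had 11050 and 11088 genes detected, and replicates 1, 3, 4 and 5 had 13031 to 15034. Whether low values in replicates 2 and 6 reflect the cells or fewer transcripts captured in those libraries was not tested. Without culture replicate 1, 2 or 3 the model with batch called 6, and without culture replicate 4 or 5 it called 16 or 17. Without culture replicate 2 or 3 the number that differed between batches was 19 or 18. With the near-alike libraries averaged, 2 fell in the model with batch (Cenpf and Pcna), 6 in batch 1, and 7 differed between batches, with the signs of all 46 batch 1 differences as before.

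Seen library by library, 43 of 46 members were lower in every blood day 1 library than in every culture library of batch 1, where 29.8% of all genes were. The exceptions were Ccnb2, Cdc20 and Ube2c. In batch 2, 21 members were higher in every blood library than in both culture libraries, where 19.1% of all genes were. Cenpf, a kinetochore protein, was the 1 member lower in every blood day 1 library of both batches, as 7.39% of all genes were.

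Mki67 had 145, 0 and 131 normalized counts in batch 1 and 515, 678 and 65.9 in batch 2 of blood day 1, and 3 reads would have given 9.29 in the library at 0. Beside the culture values above, each batch 1 blood library was lower, while in batch 2 the ranges overlapped. Its log2 difference was -3.84 ± 1.29 in the model with batch (limma adjusted p = 0.0253, up to 0.221 over the alternatives), -6.90 ± 1.48 in batch 1 and -0.04 ± 1.65 in batch 2. The difference in the model with batch was negative in all 23 settings. The batch 1 means of Mki67 were 3197 in culture and 92.2 in blood day 1, and the library at 0 widens the log2 difference beyond that of the means. Top2a was at 525, 238 and 379 and at 834, 1321 and 368, a difference of -5.18 ± 0.59 in batch 1 (adjusted p = 1.79e-06, 0.000978 at most over the alternatives) and 0.50 ± 0.66 in batch 2 (adjusted p = 0.662). The batch difference of its change was 5.68 ± 0.88 (adjusted p = 0.00077, 0.0243 at most). Kif11 was at 158, 9.29 and 147 and at 223, 315 and 13.5, with -5.07 ± 1.07 in batch 1 and 0.26 ± 1.20 in batch 2. Prc1, which bundles microtubules of the central spindle, was at 217, 0 and 203 and at 333, 877 and 21.0, and its difference of -3.22 ± 1.16 (adjusted p = 0.037) was called in 11 of 23 settings.

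Of the named cyclin, checkpoint and passenger genes, Cdk1, Bub1, Aurkb and Birc5 fell in batch 1. Cdk1 was at 467, 0 and 341 and at 1409, 1083 and 1392, with -4.83 ± 1.49 in batch 1 (adjusted p = 0.0181, 0.213 with near-alike libraries averaged) and 3.19 ± 1.67 in batch 2 (adjusted p = 0.186). The batch 1 means of Cdk1 were 1550 in culture and 269 in blood day 1, so much of its batch 1 log2 difference rests on replicate 2 at 0. Each batch 2 blood value of Cdk1 lay above both culture values of that batch. Ccnb1 was at 698, 0 and 586 and at 968, 1444 and 201, and passed the test in neither batch (adjusted p = 0.0939 and 0.713). Bub1 was at 106, 0 and 72.7 and at 86.2, 112 and 303, with -5.50 ± 1.78 in batch 1 (adjusted p = 0.0233) and 2.95 ± 1.99 in batch 2 (adjusted p = 0.318). In batch 1 the Bub1 means were 901 in culture and 59.6 in blood day 1, and replicate 2 at 0 widens the log2 difference. In batch 2 its means were 173 in culture and 167 in blood day 1, and the positive log2 difference rests on culture replicate 4 at 0, since replicate 5 at 346 lay above all 3 blood values. Aurkb passed in both batches in opposite directions. It was at 623, 183 and 584 and at 750, 679 and 911, with -1.79 ± 0.57 (adjusted p = 0.0224) and 2.56 ± 0.64 (adjusted p = 0.00637), the second lost without culture replicate 5 (adjusted p = 0.253). Birc5, survivin, its partner in the passenger complex, was at 673, 232 and 583 and at 1134, 1312 and 1515, with -2.45 ± 0.60 in batch 1 and 1.18 ± 0.67 in batch 2 (adjusted p = 0.00413 and 0.225). Cenpf was at 90.3, 74.3 and 108 and at 109, 153 and 141, with -2.52 ± 0.52 in the model with batch (adjusted p = 0.000601, 0.0238 at most over 23 settings).

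Among the replication members, Mcm2 and Mcm5 passed the test in both batches in opposite directions. Mcm2 was at 1848, 619 and 1618 and at 2632, 2579 and 10727, with -1.79 ± 0.50 in batch 1 (adjusted p = 0.0103) and 3.64 ± 0.56 in batch 2 (adjusted p = 7.7e-05, 0.00615 at most over the alternatives). Mcm5 was at 2288, 963 and 2253 and at 2891, 2035 and 9798, with -2.10 ± 0.47 and 3.25 ± 0.52 (adjusted p = 0.00202 and 0.000125). In both genes replicate 6 of batch 2 was the highest library of the whole series. The batch difference of the change passed in all 20 settings for both genes, with adjusted p of 0.0178 and 0.0135 at most. Rrm2, the small subunit of ribonucleotide reductase, was at 1184, 498 and 982 and at 2949, 3253 and 2385, with -2.39 ± 0.49 and 2.05 ± 0.54 (adjusted p = 0.000951 and 0.00944). Mcm4, of the same helicase as Mcm2 and Mcm5, was at 1615, 77.4 and 1306 and at 1669, 2403 and 73.4, and its difference of -2.27 ± 0.76 (adjusted p = 0.0255) was called in 12 of 23 settings. Its values in replicates 2 and 6 were far below those of the other blood libraries, which was not so for Mcm2 and Mcm5 in replicate 6.

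Cdc6 was at 199, 0 and 232 and at 221, 258 and 517, and Cdc45, the helicase cofactor that fires origins, at 346, 0 and 305 and at 883, 991 and 1723. Cdc45 had a difference of -4.15 ± 1.49 in batch 1 (adjusted p = 0.0394), called in 10 of 20 settings, and 3.19 ± 1.67 in batch 2 (adjusted p = 0.185). Ccne1, cyclin E1, which starts S phase, was at 471, 0 and 410 and at 480, 777 and 1258 and passed in neither batch (adjusted p = 0.0925 and 0.0668). In each of these 3 genes the library at 0 was blood day 1 replicate 2, which widens their batch 1 log2 differences. The batch 1 means of Cdc45 were 837 in culture and 217 in blood day 1. Pola1, the DNA polymerase subunit that extends the primers of primase, was at 182, 43.3 and 222 and at 147, 297 and 12.7. Its difference was -2.97 ± 0.74 (limma adjusted p = 0.0036), with the same sign in both batches, -3.41 ± 0.98 and -2.23 ± 1.09. Lig1, the ligase that joins Okazaki fragments, was at 491, 0 and 464 and at 767, 1210 and 244, with -3.77 ± 1.19 (limma adjusted p = 0.0185) and the same sign in both batches, -5.97 ± 1.52 and -1.17 ± 1.70. Replicate 2 at 0 widens the batch 1 difference of Lig1 as well, where the means were 3828 in culture and 318 in blood day 1. Pcna was at 2833, 2077 and 2797 and at 5804, 4563 and 2892, with -1.79 ± 0.33 (adjusted p = 0.000182, 0.0111 at most over 23 settings). E2f1 was at 411, 86.7 and 345 and at 538, 292 and 1002, with -1.85 ± 0.53 (adjusted p = 0.00988), -3.07 ± 0.62 in batch 1 and -0.29 ± 0.70 in batch 2.

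**Figure D4:**
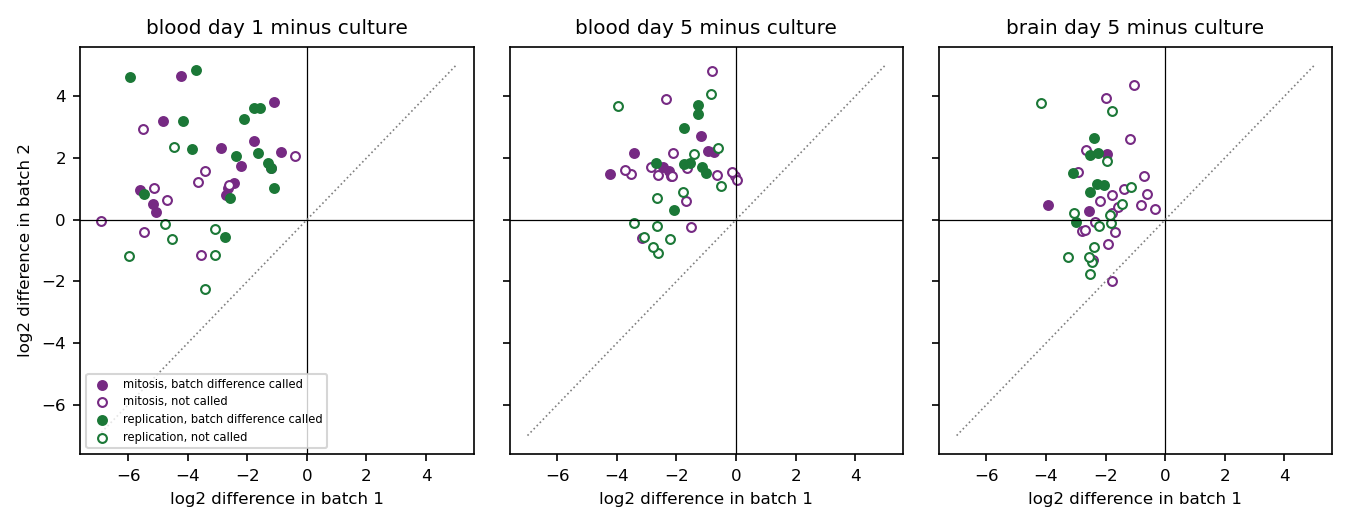
Log2 difference from culture of each member in batch 1 (x axis) and batch 2 (y axis), for blood day 1, blood day 5 and brain day 5, with mitosis members in purple, replication members in green and filled points where the batch difference of the change passed the test (29, 17 and 11 members). Nearly all points lie left of 0 in batch 1 and mostly above 0 in batch 2, away from the dotted line of equal change, and the panels share their culture libraries.

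Markers of blood cells moved with the blood groups. Markers of erythroid cells summed to 0.357 to 8.40% of the normalized total in blood day 1 and 0.00104 to 0.409% in culture, platelet markers to 0.449 to 5.91% and 0.0213 to 0.101%, B cell markers to 0.110 to 0.564% and 0.000511 to 0.0194%, and NK cell markers to 0.0896 to 0.352% and 0.0132 to 0.0278%. In blood day 5 the same 4 lists summed to 0.267 to 3.72%, 0.187 to 1.76%, 0.297 to 0.916% and 0.196 to 0.418%. Neutrophil markers summed to at most 0.0225% in culture and to 0.0501 to 0.485% in blood day 1, and in blood day 5 they differed between batches, at 0.242 to 0.260% in batch 1 and 1.03 to 2.56% in batch 2. Monocyte and macrophage markers summed to at most 0.0106% in culture, 0.0754 to 0.142% in blood day 1 and at least 0.0914% in blood day 5. The highest platelet sum, 5.91%, was in blood day 1 replicate 2, the library with 17 members at 0. That library also had the fewest genes detected at a common depth among the blood day 1 libraries (11050). In bulk libraries fewer cycling cells and less of these RNAs per cell cannot be told apart, and the part of other cells in the result was not tested.

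The comparison of blood day 5 with culture uses the same culture libraries. In the model with batch 4 members fell, Cenpf, Pola1, Pcna and E2f1, and none rose, where 11.4% of all genes fell and 19.6% rose (median -0.60 against 0.14 for all genes). In batch 1, 18 members fell and none rose (11.2% of all genes fell and 17.1% rose). In batch 2, 12 rose and 1 fell (18.2% and 9.53% of all genes), the fall being Pcna. The change differed between batches for 17 members, where 8.42% of all genes did, each more positive in batch 2. With near-alike libraries averaged these 4 counts of calls were 1, 4, 11 and 5, and without the 4 libraries standing apart they were 14, 36, 22 and 34. Without culture replicates 1, 2 or 3 the model with batch called 2 members, without replicate 4 or 5 it called 7, and without replicate 5 the batch 2 calls were 7. In batch 1, 43 of 46 members were lower in every blood day 5 library than in every culture library (31.1% of all genes), with Ccnb2, Cdc20 and Cenpa as the exceptions. In batch 2, 27 were higher in every library (27% of all genes).

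Cenpf was at 137, 162 and 77.4 in batch 1 and at 262, 135 and 214 in batch 2 of blood day 5. Its difference was -2.03 ± 0.52 (adjusted p = 0.00386, up to 0.0792 over the alternatives), with -3.15 ± 0.57 in batch 1 and -0.59 ± 0.64 in batch 2. Pcna was at 2566, 3286 and 2549 and at 2868, 3305 and 2812, lower than every culture library in both batches, as 9.54% of all genes were. Pcna fell by 1.98 ± 0.33 on the log2 scale in the model with batch (adjusted p = 5.22e-05, 0.00366 at most over 23 settings), by 2.62 ± 0.32 in batch 1 and by 1.07 ± 0.36 in batch 2 (adjusted p = 0.032, 0.476 without culture replicate 5). Pola1 was at 157, 172 and 130 and at 329, 332 and 175, and its difference of -1.98 ± 0.74 (adjusted p = 0.0468) was called in 11 of 23 settings. E2f1 was at 475, 440 and 341 and at 434, 480 and 376, the narrowest range of the 4 groups, with -1.60 ± 0.53 (adjusted p = 0.0241), called in 17 of 23 settings.

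Top2a was at 764, 600 and 757 and at 1744, 1117 and 1605, with -4.22 ± 0.59 in batch 1 (adjusted p = 1.92e-05) and 1.48 ± 0.66 in batch 2 (adjusted p = 0.103). Mcm5 was at 2374, 2031 and 2203 and at 3023, 2860 and 3714, with -1.73 ± 0.47 (adjusted p = 0.00888) and 2.97 ± 0.52 (adjusted p = 0.000282). Mcm2 was at 1881, 1517 and 1894 and at 3640, 4708 and 4964, with -1.27 ± 0.50 (adjusted p = 0.0651) and 3.71 ± 0.56 (adjusted p = 5.39e-05). In Mcm2 and Mcm5 the batch 1 blood libraries lay between the 2 culture batches, and in Top2a 1 of them lay below the higher batch 2 culture library. Aurkb was at 640, 662 and 554 and at 886, 778 and 925, and rose in batch 2 by 2.71 ± 0.64 (adjusted p = 0.00365), a call lost without culture replicate 5 (adjusted p = 0.157). Cdk1 was at 369, 343 and 357 and at 1006, 662 and 376, Ccnb1 at 677, 697 and 458 and at 805, 821 and 699, and Ccne1 at 442, 554 and 308 and at 484, 487 and 386. None of these 3 passed in either batch.

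Between the 2 blood days no member passed the test, and hardly any gene did. By limma 0 of 46 passed, where 16 genes of 15268 did (0.105%), so the count does not set the members apart from other genes. By limma 2 members had an unadjusted p under 0.05, and edgeR and DESeq2 on recovered reads also called 0. The median difference, day 5 minus day 1, was 0.48 (0.12 for all genes), the range over members was -0.61 to 2.82, and 8 of the 46 differences were negative. Leaving out blood day 1 replicate 2 turned the sign of 18 of the 46.

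The comparison of brain day 5 with culture asks what the cells recovered from the ischemic brain expressed. In the model with batch 12 members fell and none rose, where 11.7% of all genes fell and 37.5% rose, and 41 of 46 differences were negative (median -1.09 against 0.67 for all genes). The 12 were Top2a, Bub1b, Birc5, Nusap1, Cenpa and Cenpf of mitosis and Mcm4, Mcm6, Cdt1, Pola1, Prim1 and Pcna of replication. In batch 1, 23 fell and none rose (9.1% of all genes fell and 30.8% rose). In batch 2, Aurkb, Mcm2, Mcm3, Mcm5, Mcm7 and Tk1 rose (36.2% of all genes rose) and Pcna fell (10.2% fell), whereas edgeR on recovered reads gave 2 rises and 3 falls. The change differed between batches for 11 members, each more positive in batch 2, where 3.41% of all genes differed. The median difference between batches was -0.07 within brain and -2.66 within culture, so this count largely repeats the culture difference. With near-alike libraries averaged, 2 fell in the model with batch (Cdt1 and Pcna), 11 in batch 1, and 2 differed between batches, and without the 4 libraries standing apart 29, 40 and 26 did. Without culture replicate 2 or 3 the model with batch called 7, and without culture replicate 5 it called 21. The 7 batch 2 calls became 16 without culture replicate 4, 3 without culture replicate 5 and 4 without brain replicate 6, and the 11 batch differences became 21 without culture replicate 4.

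In batch 1, 42 of 46 members were lower in every brain library than in every culture library, where 18.9% of all genes were. In batch 2, 8 were higher in every library, where 43.5% of all genes were. Mcm4 and Pcna were lower in every brain library of both batches, as 7.27% of all genes were. Mcm4 was at 693, 1017 and 911 in batch 1 and at 389, 597 and 796 in batch 2, with -2.06 ± 0.76 (adjusted p = 0.028), called in 16 of 23 settings. Pcna was at 2716, 3533 and 2601 and at 2549, 1941 and 4110, a fall of 2.01 ± 0.33 on the log2 scale (adjusted p = 1.68e-05, 0.00199 at most over 23 settings). Pcna also fell in each batch, by 2.55 ± 0.32 and by 1.20 ± 0.36 (adjusted p = 2.23e-06 and 0.00966), the second lost without culture replicate 5 (adjusted p = 0.263).

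Cdt1, which loads MCM helicases together with Cdc6, was at 323, 252 and 458 and at 397, 194 and 479, with -1.77 ± 0.36 (adjusted p = 0.000244, 0.0108 at most over 23 settings), -2.38 ± 0.39 in batch 1 and -0.90 ± 0.44 in batch 2. Mcm6 was at 1394, 1897 and 1386 and at 837, 1317 and 3050, with -1.41 ± 0.44 (adjusted p = 0.0106) and -2.22 ± 0.39 in batch 1 and -0.19 ± 0.44 in batch 2. Pola1 was at 299, 29.0 and 263 and at 142, 146 and 240, with -2.40 ± 0.74 (adjusted p = 0.0097). Brain replicate 2 was the low library of Pola1. Top2a was at 1384, 312 and 1498 and at 289, 1114 and 1174, with -2.14 ± 0.80 (adjusted p = 0.0289) and, in batch 1, -3.92 ± 0.59 (adjusted p = 1.72e-05) against 0.47 ± 0.66 in batch 2. Birc5 was at 299, 779 and 239 and at 303, 194 and 1592, with -1.74 ± 0.57 (adjusted p = 0.0142). Mki67 was at 843, 143 and 794 and at 79.8, 228 and 638, and Cdk1 at 555, 1075 and 539 and at 475, 353 and 3979, and neither passed in the model with batch (adjusted p = 0.222 and 0.878). Mcm5 was at 758, 970 and 826 and at 962, 724 and 2170, with -3.11 ± 0.47 in batch 1 (adjusted p = 1.92e-05) and 1.50 ± 0.52 in batch 2 (adjusted p = 0.0242, 0.121 without brain replicate 6).

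Markers of brain tissue moved with the brain group. Choroid plexus markers summed to 0.984 to 3.69% of the normalized total in brain and at most 0.00103% in culture, oligodendrocyte lineage markers to 0.772 to 1.28% and at most 0.00416%, and microglia markers to 0.501 to 1.30% and at most 0.0286%. T cell markers, 0.356 to 1.10% in culture, were at most 0.00177% in brain, and NK cell markers at most 0.000325%. The part of other cells in the result was not tested.

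Set against blood on the same day, the brain libraries differed by few members. Cdt1, Cenpa and Mcm6 fell and none rose, where 14.3% of all genes fell and 33.6% rose, and 36 of the 46 differences were negative (median -0.49 against 0.47 for all genes). Cdt1 was at 1062 to 1741 in the 6 blood day 5 libraries (median 1204) and at 194 to 479 in the 6 brain libraries (median 360), a difference of -1.92 ± 0.34 (adjusted p = 6e-05). Cenpa, the centromeric histone, was at 990 to 1789 (median 1368) and at 169 to 992 (median 397), a difference of -1.73 ± 0.44 (adjusted p = 0.00213). Mcm6 was at 3585 to 5344 (median 4093) and at 837 to 3050 (median 1390), a difference of -1.46 ± 0.42 (adjusted p = 0.00585). The 2 groups did not overlap in Cdt1 and Mcm6, and in Cenpa the highest brain library just passed the lowest blood library. All 3 were called in all 24 settings, with adjusted p of 0.000265, 0.00803 and 0.0195 at most. No other member passed, and the number called ranged up to 15 falls with library quality weights.

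Other genes of the same pathways, from lists of named genes that hold no member, were read the same way. For single genes of these lists, means are over both batches and differences come from the model with batch. Opposite changes in the 2 batches would not show in them, and their range over the alternatives is not given here. Of 42 other mitosis genes tested, 14 fell and 2 rose in blood day 1, 6 fell and 1 rose in blood day 5, and 9 fell and 2 rose in brain, each against culture. Of all genes 14%, 11.4% and 11.7% fell and 18.1%, 19.6% and 37.5% rose in these comparisons. Kif15, a spindle motor, had a mean of 1238 in culture and 74.9 in blood day 1 (difference -5.55 ± 1.16, adjusted p = 0.000713). Ncapg, a condensin subunit, had 1255 in culture, 191 in blood day 5 and 121 in brain, with -2.73 ± 0.58 and -3.26 ± 0.58 (adjusted p = 0.000714 and 4.45e-05). The mitosis gene that rose in blood day 5 was Cdc25b, the phosphatase that activates CDK1, from 691 to 2957 (2.23 ± 0.41, adjusted p = 0.000174). Anln, a cytokinesis scaffold also abundant in oligodendrocytes, rose in brain from 223 to 943 (3.17 ± 1.22, adjusted p = 0.0353). The batch pattern was also present here. In blood day 1, 28 of the 42 fell and 1 rose in batch 1, 12 rose and 2 fell in batch 2, and 21 had a batch difference of the change, all more positive in batch 2. Of all genes 14.7% fell and 18.4% rose in batch 1, 14.3% rose and 8.27% fell in batch 2, and 9.63% had a batch difference.

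Of 41 other replication genes tested, none rose, and 11 fell in blood day 1, 8 in blood day 5 and 18 in brain, where 14%, 11.4% and 11.7% of all genes fell and 18.1%, 19.6% and 37.5% rose. Rfc3, a subunit of the clamp loader that opens Pcna, had means of 1940 in culture, 534 in blood day 5 and 433 in brain, with differences of -1.85 ± 0.34 and -2.26 ± 0.34 (adjusted p = 0.000175 and 6.13e-06). Gmnn, geminin, the inhibitor of Cdt1, had 1555, 374 and 295 in the same groups, with -1.85 ± 0.49 and -2.31 ± 0.49 (adjusted p = 0.00493 and 0.000335). Orc1, a subunit of the origin recognition complex, had 473 in culture, 39.0 in blood day 1 and 27.8 in brain, with -3.45 ± 1.06 and -3.18 ± 1.06 (adjusted p = 0.0158 and 0.016). In blood day 1, 24 of the 41 fell in batch 1 (14.7% of all genes), 4 rose in batch 2 (14.3%) and 11 had a batch difference of the change (9.63%).

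The G1 list of cyclins, CDKs and E2F activators moved in both directions, with 4 rises and 3 falls among 11 in blood day 1, 2 and 4 in blood day 5, and 1 and 5 in brain. Of all genes 18.1% rose and 14% fell in blood day 1, 19.6% and 11.4% in blood day 5, and 37.5% and 11.7% in brain. Mycn, a growth regulator, had a mean of 4199 in culture and 18.8, 19.1 and 71.6 in blood day 1, blood day 5 and brain, with differences of -9.40 ± 1.23, -8.56 ± 1.23 and -6.73 ± 1.23 (adjusted p = 2.77e-06, 8.95e-06 and 6.67e-05). Myc, its relative, went the other way in blood, from 275 to 1589 and 1640 (3.64 ± 1.07 and 4.01 ± 1.07, adjusted p = 0.012 and 0.00566). Cdk6, a kinase that acts with D cyclins in G1, had 1814 in culture and 211, 142 and 147 in the other groups, and fell in all 3 comparisons. Ccnd1, cyclin D1, rose in brain from 46.3 to 1279 (5.69 ± 0.85, limma adjusted p = 4.91e-06). Ccnd2, cyclin D2, fell there from 10524 to 3100 (-1.82 ± 0.28, limma adjusted p = 9.28e-06). The part of other cells in the differences of this list was not tested.

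Of 23 inhibitors of the cycle and genes of quiescence, 7 rose and 5 fell in blood day 1, 8 and 5 in blood day 5, and 7 and 7 in brain, beside the same shares of all genes (18.1% and 14%, 19.6% and 11.4%, 37.5% and 11.7%). Klf2, a factor of resting lymphocytes, had a mean of 321 in culture and 10278 and 13268 in blood on days 1 and 5, with 5.15 ± 0.32 and 5.57 ± 0.32 (adjusted p = 5.25e-11 and 1.47e-11). Btg2, an antiproliferative gene, rose in blood day 5 and brain from 835 to 9898 and 8800 (3.72 ± 0.34 and 3.59 ± 0.34, adjusted p = 1.56e-08 and 6.64e-09). Cdkn1c, the CDK inhibitor p57, had 1.91 in culture, 132 and 130 in blood and 4814 in brain, a difference of 10.85 ± 0.62 in brain (limma adjusted p = 1.39e-12). Blood and brain libraries held markers of other cells, and their part in the rises of this list was not tested. Cdkn2a, which encodes the CDK4 and CDK6 inhibitor INK4A and ARF, fell from 185 in culture to 0.391, 2.68 and 8.95 (adjusted p = 3.63e-07, 2.75e-06 and 1.79e-05). In this list 3 of 23 genes had a batch difference of the change in blood day 1, where 9.63% of all genes did.

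**Figure D5:**
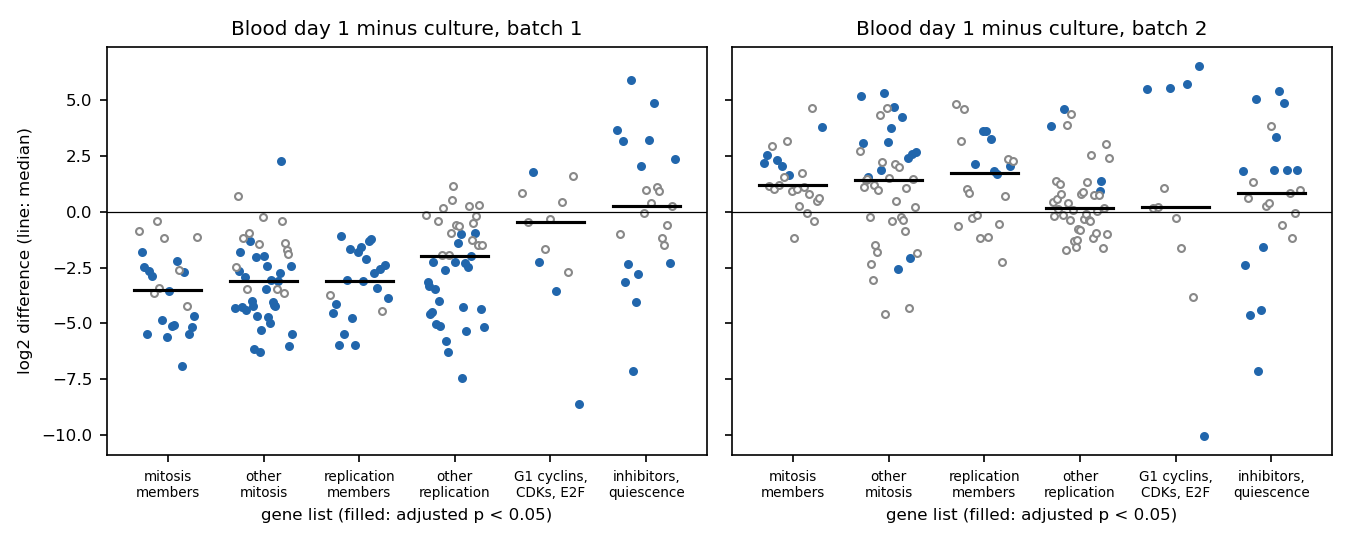
Log2 difference between blood day 1 and culture in batch 1 (left) and batch 2 (right) for the members and for 4 lists of other cell cycle genes, with 1 point a gene, filled blue where the adjusted p was under 0.05 and a bar at the median. The mitosis and replication lists lie below 0 in batch 1 and around or above 0 in batch 2 (member medians -3.49 and -3.09, then 1.20 and 1.76), while the inhibitor list spans 0 in both.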

How the data were processed

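RNA of 23 libraries was sequenced as 150-base paired reads from poly-A RNA. The submitters' processing notes name fastp, HISAT2 2.0.5 and mm10. The sources used here give no read counter, annotation or strand setting. The authors deposited a table of normalized counts (a signal, not raw counts) for 19945 genes. Dividing each column by its value of 1 read gave whole reads for 100% of values within 0.1 read, with 11.6 M to 58.1 M reads per library, and 3 reads set the floor printed for values of 0.

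Groups and batches came from the labels. Limma 3.58.1 (R 4.3.3) tested log2 of the value plus a pseudocount of 1, in 1 fit over all libraries with batch as a term, and in another with each group and batch apart. The pseudocount narrows the changes of genes that are low in all libraries. A single library at 0 in a group of higher values does the opposite and widens the log2 difference beyond that of the means. This applies to the 17 members without a read in blood day 1 replicate 2. A gene was kept if 5 or more libraries had a value of 10 or more. All tests are two-sided, with Benjamini-Hochberg adjustment over 15268 genes and a threshold of 0.05. Recovered reads were also tested with edgeR 4.0.16 and DESeq2 1.42.0, and scripts were tested on simulated data. Other alternatives were the pseudocount (0.5), the filter, the scaling, the libraries in the fit, library quality weights, near-alike libraries averaged, and leaving out libraries. Figures used matplotlib 3.10.9 in Python 3.11.15.

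Members and lists were chosen with earlier results of these data known. Members given by library were set by role, with added members of the largest called difference, and other lists name up to 4 called genes with a mean of at least 100. Lig1, Prc1, Pola1, Mcm4, Cdt1, Cenpa and Mcm6 were added under that rule or because they were called. The labels do not say that libraries came from separate animals, so p-values measure only the spread between these samples, which may be technical. Tyms and Uhrf1 were not analysed here.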

Additional observations from a re-analysis of the deposited data

Results flagged for a closer look

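Within each group, libraries far from the others were sought for 24 named members and the summed shares, in 104 group tests, by the gap to the nearest library over the group's range (limits 0.71 for 5 libraries and 0.625 for 6). These limits mark about 1 in 20 groups of independent draws from 1 normal population. The groups here mix 2 batches, culture holds near-alike libraries and the members are not independent, so that rate does not apply. The rule marked 21, of which 9 were in blood day 1 replicate 2, and gives no measure against chance.

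Blood day 1 replicate 2 was at 0 normalized counts for Mki67, Ccnb1, Cdk1, Bub1, Cdc6, Cdc45, Ccne1 and Lig1, and at 183 for Aurkb, where the other blood day 1 libraries were at 584 to 911. Culture replicate 4 was low for Mki67 at 77.2, Ccnb1 at 94.9, Bub1 at 0 and Cdc45 at 36.6. Culture replicate 5 was low for Ccne1 at 2.22, E2f1 at 238 and Lig1 at 688. The other libraries marked were blood day 5 replicate 3 for Ccnb1 at 458, brain replicate 4 for Bub1 at 31.2, brain replicate 2 for Pola1 at 29.0 and brain replicate 6 for Mcm5 at 2170 and for the summed replication members at 0.116% of the normalized total.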

How the results depend on the processing

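Counts of members called moved with the processing, and no named call turned its direction. Rescaling to equal library totals moved all genes by -0.17 to 0.57 on the log2 scale relative to culture, depending on group and batch.

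For falls against culture in the model with batch, blood day 1 (10) became 19 with DESeq2, 3 with only the libraries of both groups, 39 with library quality weights and 2 with near-alike libraries averaged. Blood day 5 (4) became 2 with equal totals, 8 with edgeR, 14 with DESeq2, 38 with weights, 1 with libraries averaged and 14 without the 4 libraries standing apart. Brain (12) became 27 with edgeR, 24 with DESeq2, 42 with weights, 2 with libraries averaged and 29 without those 4. Brain against blood day 5 (3 falls, 0 rises) gave 6 falls with equal totals, 9 with edgeR, 5 with DESeq2, 11 with both groups only, 15 with weights and 9 without those 4, and 1 rise each with both groups only, weights and without those 4. The cause was not tested.

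Within batch 1, calls with libraries averaged were 6 (blood day 1), 4 (blood day 5) and 11 (brain). For blood day 5 they were also 11 with equal totals, 28 with DESeq2, 38 with weights and 36 without the 4 libraries, and for brain 45 with weights and 40 without the 4. Within batch 2, weights gave 4 (blood day 1) and 7 (blood day 5), and leaving out the 4 gave 22 (blood day 5) and 13 (brain). The batch difference of the change gave 7, 5 and 2 members with libraries averaged, and 34 (blood day 5) and 26 (brain) without the 4. Between batches, culture gave 12 with edgeR, 4 with libraries averaged and 33 without the 4, blood day 1 gave 7 with DESeq2, blood day 5 gave 3 with weights and 4 without the 4, and brain gave 1 with DESeq2, 14 with weights and 5 without the 4.

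Leaving out 1 library at a time, falls ranged from 6 to 17 (blood day 1), 2 to 7 (blood day 5), 7 to 21 (brain) and 3 to 5 (brain against blood day 5). Batch 1 calls ranged from 24 to 41, 12 to 22 and 20 to 26, batch 2 calls from 9 to 19, 7 to 17 and 3 to 16, and batch differences of the change from 18 to 34, 12 to 22 and 8 to 21. Between batches the range was 12 to 23 in culture, 0 to 1 in blood day 1, 0 in blood day 5 and 0 to 1 in brain. Without blood day 1 replicate 1 it was 1, and without brain replicate 5 it was 1.

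With the replicate block in place of batch, falls were 8, 3 and 11 against culture and 3 for brain against blood day 5. Same-numbered libraries of different groups correlated at -0.104 to 0.189 (median 0.0141) and others at -0.167 to 0.120 (median -0.0081), and 5 of 23 correlated best with their own number, so the numbers were not taken to pair the samples.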
